A study of Mus musculus with 10 samples.

Results

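Type I interferon response genes are genes whose transcripts accumulate when a cell senses interferon-alpha or interferon-beta. A list of 42 such genes was followed here by symbol in the deposited count tables of mouse microglia, and all 42 were found among the 49315 genes listed. Microglia are the resident macrophages of the brain parenchyma, and CD11c, encoded by Itgax, is an integrin chain carried on the surface of some of them. The cells were sorted from the brains of wild-type C57BL/6 mice into CD11c+ and CD11c- fractions. There were 2 CD11c+ and 2 CD11c- libraries from 9-month-old mice, and 3 CD11c+ and 3 CD11c- libraries from mice at postnatal day 5 (P5). All groups share the wild-type genotype and the labels name no agent for any of them. The question posed by the design is what sets the CD11c+ subset apart from the CD11c- cells of the same age. For the 9-month libraries alone the labels name the SMART-Seq v4 kit, so age and library preparation cannot be told apart and no level was tested between ages. Whether replicates are separate animals is not stated in the labels, and the p-values therefore reflect only how far these libraries scatter, which can be technical scatter.

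In this pathway, type I interferons bind the receptor pair Ifnar1 and Ifnar2, and the kinases Jak1 and Tyk2 then phosphorylate Stat2 among other proteins. Stat2 joins Irf9 in a complex that binds interferon-stimulated response elements in the promoters of the response genes. The products include enzymes that sense or degrade foreign RNA, proteins that block virus entry or release, and regulators such as Irf7, which amplifies the response, and Usp18, which dampens it. Microglia express the receptor and respond to interferon, and a small interferon-responsive fraction of microglia is known in the developing and the aged brain.

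Total counts ranged from 11892082 to 25483573 per library, except for P5 CD11c+ replicate 2 with 2619610. In that library 23033 genes reached 1 CPM (read counts scaled to the library total), while 12762 to 14735 did so elsewhere, so the P5 results are given with and without it. Levels are CPM scaled by trimmed means of M-values (TMM) within each age. Itgax, the gene behind the sort, had 24.8 and 18.02 CPM in the 9-month CD11c+ libraries, against 6.22 and 3.89 CPM in the CD11c- libraries. At P5 it had 232, 47.5 and 138 CPM in CD11c+, against 30.6, 69.5 and 35.8 CPM in CD11c-, where CD11c+ replicate 2 lay inside the CD11c- range. The 20 neutrophil markers summed to between 2039 and 2991 CPM in the 9-month CD11c+ libraries, against 162044 to 246900 CPM in CD11c-, with none of the 20 at 0. They made up between 0.234% and 0.337% of all counts in CD11c+ and between 15.1% and 20.3% in CD11c-. The 14 monocyte markers summed to between 792 and 850 CPM against 3893 to 4634 CPM in the same libraries, and the 28 homeostatic microglia markers to between 76416 and 84388 CPM against 32472 to 36133 CPM. The 9-month CD11c- libraries therefore held microglial marker RNA together with much neutrophil marker RNA, which goes in part against their label. At P5, the 20 markers of border-associated macrophages summed to between 16466 and 20942 CPM in CD11c+, against 2008 to 2876 CPM in CD11c-, and mitochondrially encoded transcripts made up 0.791% to 2.80% of counts against 7.19% to 28.1%. The part that these other cells and RNA makeup play in the results was not tested. In bulk RNA, fewer cells of a type and less RNA per cell cannot be told apart.

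**Figure D1:**
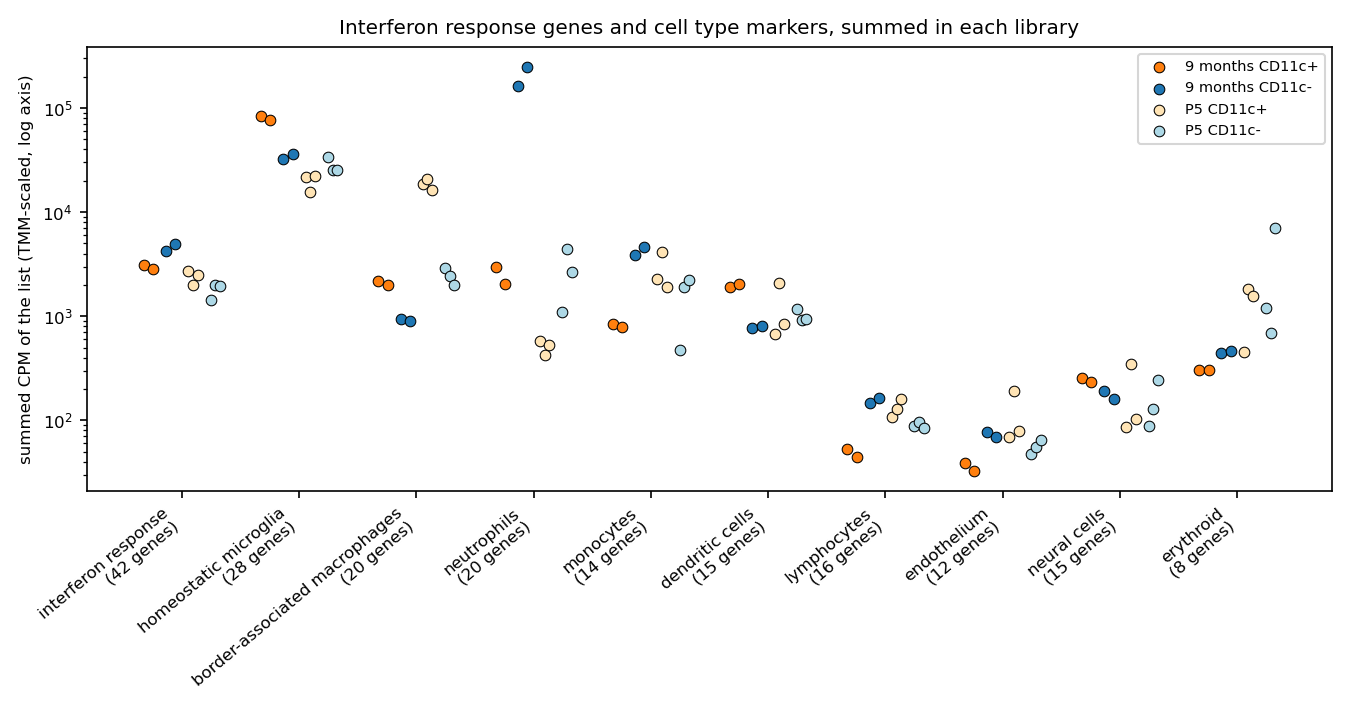
Summed TMM-scaled CPM (log axis) of the 42 interferon response genes and of each cell type marker list, with 1 point per library for 9-month CD11c+ and CD11c- and P5 CD11c+ and CD11c-. Neutrophil markers lie between 162044 and 246900 CPM in both 9-month CD11c- libraries and at 4456 CPM or less in the others, while the interferon response genes lie between 1422 and 4915 CPM everywhere.

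The promoters of 31 of the 42 genes are in the RefSeq table used here (GRCm38.p6), each as the 250 bases before and 50 bases after a transcription start. Not among them are Rtp4, Usp18, Ifi204, Ly6e, Oas2, Ifi27l2a, Dhx58, Parp14, Zbp1, Mx2 and Mx1. The core of the interferon-stimulated response element was searched on both strands as GAAA, any 2 bases (NN) and GAAA again, with overlapping matches counted. It occurred in 18 of the 31 (58.1%), and in 1079 of all 27025 genes of the table (3.99%). It was found in 4 of the 7 genes in the table that were higher in CD11c+ at 9 months and in 4 of the 8 that were lower. The promoters below are those of the 2 genes lower and the 2 genes higher in CD11c+ at 9 months that had the smallest p in their direction among those with the motif, with the motif in capitals and the strand of the gene printed 5′ to 3′. In Oas3 (chr5:120777610-120777909, minus strand) it begins 75 bases before the start. In Ifitm3 (chr7:141010695-141010994, minus strand) it occurs 2 and 19 bases after the start. In Bst2 (chr8:71537423-71537722, minus strand) 2 overlapping copies begin 130 and 124 bases before the start. In Slfn8 (chr11:83020761-83021060, minus strand) it lies in reverse orientation, 48 bases before the start, in 1 of the 2 windows listed for the gene. A match describes these letters only, and binding was not measured.
Oas3: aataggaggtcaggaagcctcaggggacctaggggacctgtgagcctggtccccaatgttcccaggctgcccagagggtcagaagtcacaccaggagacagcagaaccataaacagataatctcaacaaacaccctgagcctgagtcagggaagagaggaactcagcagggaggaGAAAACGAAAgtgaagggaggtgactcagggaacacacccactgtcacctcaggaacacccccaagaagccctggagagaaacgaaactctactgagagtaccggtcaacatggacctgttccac
Ifitm3: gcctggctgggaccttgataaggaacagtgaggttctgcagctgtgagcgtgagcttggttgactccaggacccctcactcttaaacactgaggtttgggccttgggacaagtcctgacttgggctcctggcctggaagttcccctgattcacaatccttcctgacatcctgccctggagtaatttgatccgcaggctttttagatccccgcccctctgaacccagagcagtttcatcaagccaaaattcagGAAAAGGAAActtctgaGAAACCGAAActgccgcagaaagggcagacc
Bst2: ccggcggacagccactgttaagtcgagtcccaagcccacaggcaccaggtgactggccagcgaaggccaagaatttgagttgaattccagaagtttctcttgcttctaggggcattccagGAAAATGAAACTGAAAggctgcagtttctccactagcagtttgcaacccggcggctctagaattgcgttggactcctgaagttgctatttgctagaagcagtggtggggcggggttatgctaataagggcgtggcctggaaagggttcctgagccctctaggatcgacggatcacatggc
Slfn8: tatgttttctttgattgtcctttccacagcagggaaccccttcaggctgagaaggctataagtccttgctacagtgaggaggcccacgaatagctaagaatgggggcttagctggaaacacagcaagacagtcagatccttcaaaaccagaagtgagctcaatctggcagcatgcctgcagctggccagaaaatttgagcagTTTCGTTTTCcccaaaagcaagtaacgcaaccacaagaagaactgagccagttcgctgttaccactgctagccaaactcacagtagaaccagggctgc

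Levels per kilobase of exon, which allow genes to be compared, were highest in every group for a gene of a small membrane protein. Slfn2, which is not of this kind, came next after Ifitm3 in 9-month CD11c-, at 409 ± 10.4 CPM per kilobase (SD, n = 2). Ifitm3, which blocks virus entry from endosomes, stood at 253 ± 21.8 CPM per kilobase in 9-month CD11c+ and at 1891 ± 580 in 9-month CD11c- (SD, n = 2 each). Ly6e, a lipid-anchored surface protein that restricts virus entry, stood at 364 ± 10.5 and 288 ± 22.6 CPM per kilobase in the same groups. At P5, Ifitm3 had 132 ± 52.6 CPM per kilobase in CD11c+ and 219 ± 126 in CD11c- (SD, n = 3 each), and their library ranges overlapped. Bst2, or tetherin, which holds budding virus at the cell surface, ranked highest in P5 CD11c+ at 226 ± 122 CPM per kilobase, against 71.1 ± 13.9 in P5 CD11c-. Its rank there rests on 1 library, since the 3 CD11c+ libraries ran from 151 to 367. The lowest member in every group was Ifi44, a cytoplasmic protein of antiviral action, at 0.463 CPM per kilobase in 9-month CD11c+ and 0.523 in 9-month CD11c-. The median of the 42 levels was 7.84 CPM per kilobase in 9-month CD11c+ and 7.50 in CD11c-, and 9.07 in P5 CD11c+ and 5.74 in P5 CD11c-.

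At 9 months the response genes moved in both directions, as did all genes tested. Of the 42 tested, 8 were higher in CD11c+ (Usp18, Herc6, Ifit2, Ifit3, Bst2, Slfn8, Phf11b and Phf11d), 11 were lower (Oas3, Ifitm3, Cmpk2, Slfn2, Isg20, Sp100, Rsad2, Ifi27l2a, Zbp1, Rtp4 and Ddx60) and 23 did not pass an adjusted p of 0.05 (edgeR quasi-likelihood test, Benjamini-Hochberg adjustment over all genes). The largest decrease among those that passed was a log2 fold change of -3.10 for Oas3, and the largest increase was 1.34 for Bst2. The sizes of change over all genes were not set beside these. The shares of 19.0% higher and 26.2% lower stand beside 14.8% and 18.2% of all 15740 genes tested, and the median log2 fold change was -0.01, against 0.02 over all genes. Every CD11c+ library lay above every CD11c- library in 13 members (31.0%, against 36.1% of all genes) and below in 17 (40.5%, against 33.8%). Separation without overlap is thus common among all genes at 9 months, also where it is given for single genes below. The increases depend on the scaling. When libraries were scaled to the 28 homeostatic microglia genes, the median of all genes moved to -1.20, 32 members were lower and 0 higher (beside 55.4% of all genes lower and 0.693% higher; at an unadjusted p under 0.05, 34 lower and 0 higher), and of the 8 increases only Bst2 stayed above 0, at 0.09. That scaling lowers the fold changes of all genes at 9 months, so it does not bear on the direction of the 11 decreases, which were measured in libraries where the neutrophil markers differ as given above. In the fit of all 10 libraries, which uses the wider spread at P5, only Oas3, Cmpk2 and Slfn2 passed, all lower, beside 4.49% of all genes lower and 1.43% higher.

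**Figure D2:**
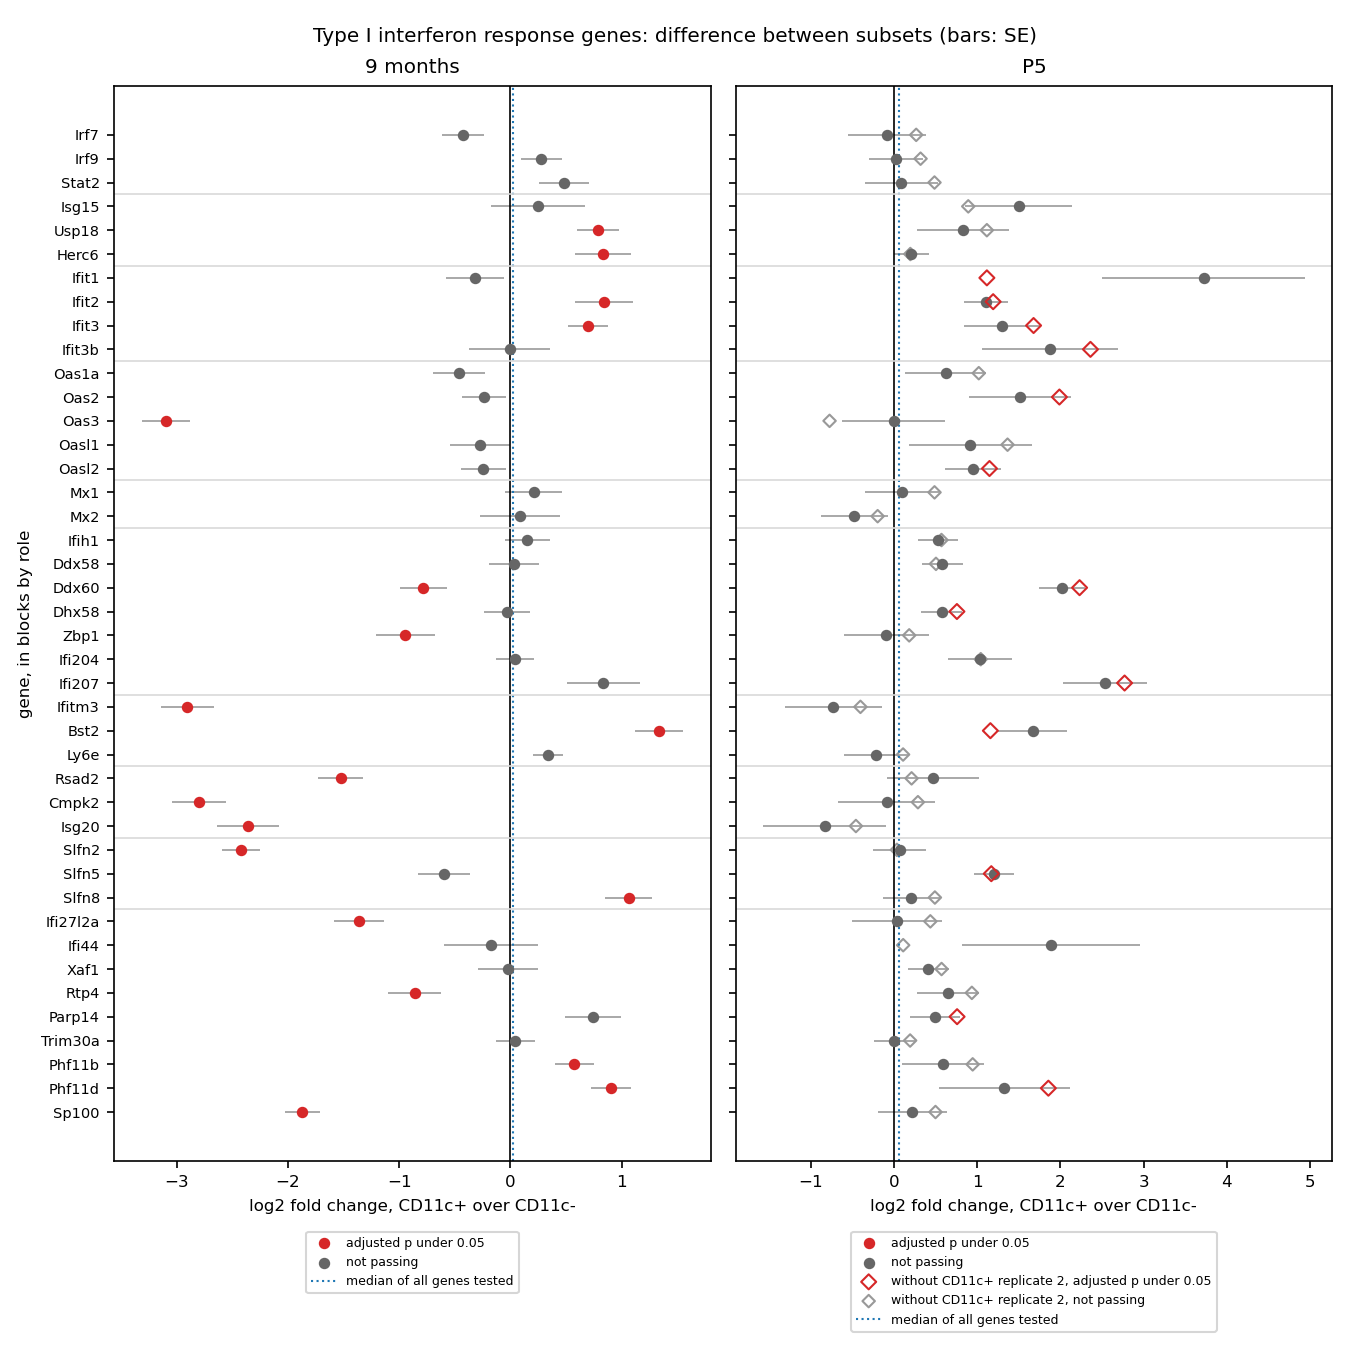
Log2 fold change of CD11c+ over CD11c- for each of the 42 genes, in blocks by role, at 9 months and at P5. Points are estimates with standard errors, red points passed an adjusted p of 0.05, open diamonds give P5 without CD11c+ replicate 2, and dotted lines the median of all genes. At 9 months 8 genes lie to the right in red and 11 to the left, and at P5 red appears only in the open diamonds, for 13 genes to the right.

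Among the transcription factors of the pathway, none passed at 9 months. Irf7, the interferon regulatory factor that amplifies the response, had 43.0 and 35.9 CPM in CD11c+, against 56.7 and 49.3 CPM in CD11c-, a log2 fold change of -0.42 ± 0.19 (SE; adjusted p = 0.134). Irf9, the DNA-binding subunit of the complex, had 108 and 87.8 CPM against 87.9 and 73.9 CPM, at 0.28 ± 0.18 (adjusted p = 0.291), and Stat2, its activating subunit, had 61.2 and 42.4 CPM against 35.4 and 38.8 CPM, at 0.48 ± 0.22 (adjusted p = 0.149). Irf7 and Stat2 did not overlap between subsets and lay in opposite directions, while Irf9 overlapped; scaled to the homeostatic genes, Irf9 and Stat2 turned to -0.97 and -0.76.

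Of the ubiquitin-like modifier system, both Usp18 and Herc6 rose in 9-month CD11c+ cells. Usp18, the protease that removes Isg15 and restrains receptor signalling, had 39.6 and 39.2 CPM in CD11c+, against 21.0 and 24.6 CPM in CD11c-, a log2 fold change of 0.79 ± 0.19 (adjusted p = 0.0199), which turned to -0.44 under the homeostatic scaling. Herc6, the ligase that attaches Isg15 in mice, had 22.6 and 20.5 CPM against 10.3 and 13.9 CPM, at 0.83 ± 0.25 (adjusted p = 0.0412), or -0.39 under that scaling. Neither gene overlapped between subsets. The modifier itself, Isg15, had 6.13 and 5.05 CPM in CD11c+ and 3.24 and 6.20 CPM in CD11c-, and its groups overlapped.

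The IFIT genes encode proteins that bind viral RNA or block its translation. Ifit2 had 32.2 and 32.9 CPM in 9-month CD11c+, against 13.95 and 22.4 CPM in CD11c-, a rise of 0.84 ± 0.26 (adjusted p = 0.0485), and Ifit3 had 48.5 and 42.7 CPM against 28.9 and 27.3 CPM, a rise of 0.70 ± 0.18 (adjusted p = 0.0263). The CD11c+ libraries were the higher ones for both genes, which stood at -0.37 and -0.54 when scaled to the homeostatic genes. Ifit1, at -0.32, and Ifit3b, at -0.01, did not pass. Ifit3 and Ifit3b are near-identical copies, and because the handling of multiply mapped reads was not given, the split of reads between them is uncertain, as it is for the Oas1, Phf11, Schlafen and Ifi200 families.

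Of the 5 oligoadenylate synthetase genes, whose products activate RNase L on double-stranded RNA or resemble those that do, only Oas3 passed. Oas3 (ENSMUSG00000032661, chromosome 5, 120753098 to 120777661) had 6.17 and 5.05 CPM in 9-month CD11c+, against 47.55 and 48.7 CPM in CD11c-, a log2 fold change of -3.10 ± 0.22 (adjusted p = 0.000122). The CD11c- libraries stood far above all others for this gene. Oas1a had 36.7 and 31.5 CPM against 55.5 and 38.2 CPM, at -0.46 ± 0.23 (adjusted p = 0.177), and Oas2, Oasl1 and Oasl2 lay between -0.27 and -0.24. The dynamin-like GTPase genes Mx1 and Mx2 overlapped between subsets. Mx1 had 15.2 and 14.1 CPM in CD11c+ against 14.6 and 10.8 CPM in CD11c-, at 0.21 ± 0.26 (adjusted p = 0.581), and Mx2 had 7.73 and 8.21 CPM against 9.55 and 5.43 CPM, at 0.09 ± 0.36 (adjusted p = 0.878); the homeostatic scaling turned them to -1.03 and -1.16.

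Of the 7 nucleic acid sensors, 2 fell in 9-month CD11c+ cells, beside 18.2% of all genes. Ddx60, a helicase that promotes RNA sensing, had 26.4 and 22.5 CPM in CD11c+, against 47.0 and 37.1 CPM in CD11c-, a log2 fold change of -0.78 ± 0.21 (adjusted p = 0.0289). Zbp1, which senses Z-form nucleic acid and triggers necroptosis, had 12.5 and 8.77 CPM against 21.6 and 19.4 CPM, at -0.95 ± 0.26 (adjusted p = 0.0328). Both were lower in each CD11c+ library than in each CD11c- library. The RNA helicases Ifih1, Ddx58 and Dhx58 and the DNA sensor Ifi204 lay between -0.03 and 0.15. Ifi207, of the same family as Ifi204, was at 0.84 and did not pass (adjusted p = 0.0931).

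The membrane proteins moved in opposite directions at 9 months. Ifitm3 (ENSMUSG00000025492, chromosome 7, 141009586 to 141010770) had 161 and 182 CPM in CD11c+, against 1004 and 1561 CPM in CD11c-, a log2 fold change of -2.90 ± 0.24 (adjusted p = 0.00024). Bst2 (ENSMUSG00000046718, chromosome 8, 71534255 to 71537456) had 104 and 71.6 CPM in CD11c+, against 35.0 and 34.6 CPM in CD11c-, at 1.34 ± 0.22 (adjusted p = 0.00452). Neither gene overlapped, and Bst2 was the only member that stayed above 0 under the homeostatic scaling (0.09). The 3 nucleotide-handling enzymes all fell. Cmpk2, a mitochondrial nucleotide kinase, had 9.69 and 8.25 CPM in CD11c+, against 73.1 and 51.8 CPM in CD11c-, at -2.80 ± 0.25 (adjusted p = 0.000323). Isg20, an exonuclease that degrades viral RNA, had 7.25 and 6.39 CPM against 42.5 and 27.4 CPM, at -2.36 ± 0.28 (adjusted p = 0.00121). Rsad2, or viperin, which makes a chain-terminating nucleotide and lies next to Cmpk2 in the genome, had 10.8 and 10.8 CPM against 31.8 and 30.3 CPM, at -1.52 ± 0.20 (adjusted p = 0.00195). The CD11c- libraries stood well above the CD11c+ libraries in all 3.

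The Schlafen genes, regulators of growth and translation in immune cells, split at 9 months. Slfn2 (ENSMUSG00000072620, chromosome 11, 83065112 to 83070678) had 141 and 113 CPM in CD11c+, against 693 and 668 CPM in CD11c-, a log2 fold change of -2.42 ± 0.17 (adjusted p = 0.000115). Slfn8 (ENSMUSG00000035208, chromosome 11, 83002158 to 83020810) had 71.7 and 62.1 CPM against 27.3 and 36.7 CPM, at 1.07 ± 0.21 (adjusted p = 0.00939), or -0.16 under the homeostatic scaling. Slfn5 was at -0.60 and did not pass (adjusted p = 0.0908). Each of the 3 separated the subsets without overlap, as 36.1% (CD11c+ higher) and 33.8% (CD11c+ lower) of all genes did at this age. Among the remaining genes, Sp100, a component of nuclear bodies, had 68.4 and 64.8 CPM in CD11c+, against 259 and 227.5 CPM in CD11c-, at -1.87 ± 0.16 (adjusted p = 0.00026). Ifi27l2a, a small mitochondrial membrane protein gene, had 41.0 and 48.0 CPM against 93.2 and 135 CPM, at -1.36 ± 0.22 (adjusted p = 0.00444). Rtp4 was lower at -0.86 (adjusted p = 0.031), and Phf11d and Phf11b were higher at 0.91 (adjusted p = 0.0091) and 0.58 (adjusted p = 0.044), or at -0.33 and -0.66 under the homeostatic scaling. Parp14, a mono-ADP-ribosyltransferase, at 0.74, and Ifi44, Xaf1 and Trim30a, between -0.18 and 0.05, did not pass.

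Leaving out a 9-month library leaves 1 in its group, so only sizes are given and no call can be checked this way. With each left out in turn, all 11 decreases and all 8 increases kept their sign. The decreases ran from -3.20 (Oas3) to -0.58 (Rtp4), and the increases from 0.54 (Ifit2) to 1.61 (Bst2). Ddx60 ran from -0.88 to -0.60 and Zbp1 from -1.17 to -0.68.

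**Figure D3:**
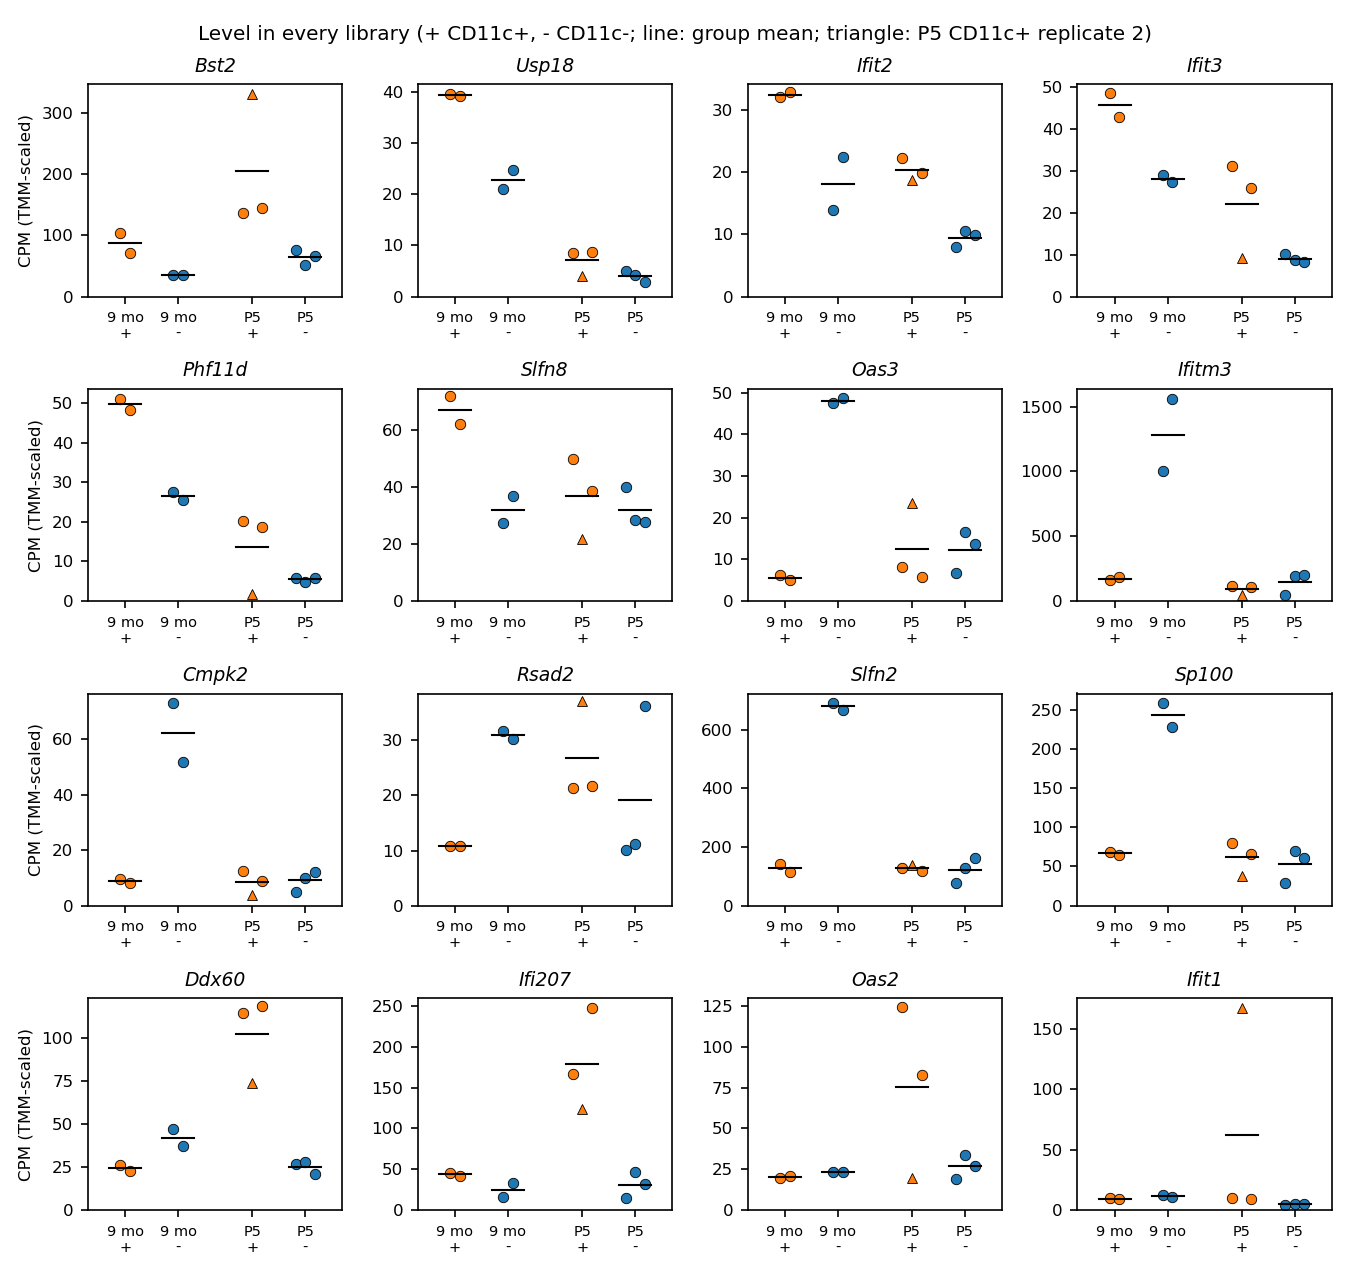
TMM-scaled CPM of 16 of the genes in every library, with + for CD11c+ and - for CD11c-, group means as lines and P5 CD11c+ replicate 2 as a triangle. Oas3, Ifitm3, Cmpk2, Slfn2 and Sp100 stand highest in the 9-month CD11c- libraries, Ddx60 and Ifi207 are highest in P5 CD11c+, and Ifit1 reaches 167 CPM in replicate 2 alone.

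At P5 the response genes leaned towards CD11c+ cells, but with all 6 libraries none passed. Of the 42 members, 34 had a fold change above 0 (81.0%, against 54.7% of all genes), and the median log2 fold change was 0.55, against 0.06 over all 15410 genes tested. Over all genes, 46 rose in CD11c+ (0.299%) and 0 fell by edgeR, where 668 and 409 had an unadjusted p under 0.05. Among the members edgeR called 0 in either direction, 10 lay higher and 0 lower with an unadjusted p under 0.05 (beside 4.33% and 2.65% of all genes), and DESeq2 called 5 higher and 0 lower (Ifit2, Ddx60, Ifi207, Bst2 and Slfn5), with 2.54% of all genes higher and 1.05% lower by that tool. Every CD11c+ library lay above every CD11c- library in 12 members (28.6%, against 8.39% of all genes) and below in 0 (against 8.68%). Without CD11c+ replicate 2, 13 members rose and 0 fell (31.0%, against 5.06% of all 15841 genes tested that rose and 4.42% that fell), with a median of 0.57 against 0.00 over all genes; 24 members were higher and 0 lower with an unadjusted p under 0.05. The 13 were Ifit1, Ifit2, Ifit3, Ifit3b, Oas2, Oasl2, Ddx60, Dhx58, Ifi207, Bst2, Slfn5, Parp14 and Phf11d. With any other P5 library left out, 0 members passed, and 0 of all genes tested passed in either direction. The border-associated macrophage markers and the mitochondrial share differed between these libraries as given above.

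P5 CD11c+ replicate 2 stood apart from the other CD11c+ libraries in many of these genes. It lay more than 2-fold above their mean in 5 members and under 0.5 of it in 20. Ifit1 had 167 CPM there, 17.1 times the mean of the other CD11c+ libraries, and Ifi44 was 9.12 times it, while Phf11d was at 0.0943 and Oas2 at 0.192 of it.

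The transcription factors overlapped between subsets at P5. Irf7 had 40.3, 12.9 and 26.7 CPM in CD11c+, against 16.9, 31.7 and 37.0 CPM in CD11c-, a log2 fold change of -0.08 ± 0.47 (SE; adjusted p = 0.977), which was 0.27 without CD11c+ replicate 2. Irf9 had 96.2, 43.4 and 85.1 CPM against 79.9, 71.1 and 71.1 CPM, at 0.02 ± 0.32 (adjusted p = 0.992), and Stat2 had 89.7, 26.5 and 82.4 CPM against 68.5, 66.1 and 53.0 CPM, at 0.09 ± 0.44 (adjusted p = 0.974). For all 3 the lowest value of the CD11c+ libraries was that of replicate 2, and without it Irf9 and Stat2 stood at 0.32 and 0.49, neither passing. In the modifier system, Isg15 had 8.56, 20.6 and 6.37 CPM in CD11c+, against 2.93, 3.06 and 6.46 CPM in CD11c-, at 1.4995 ± 0.64 (adjusted p = 0.729), and Usp18 had 8.496, 4.05 and 8.76 CPM against 5.05, 4.13 and 2.87 CPM, at 0.83 ± 0.55 (adjusted p = 0.8). Replicate 2 was the highest CD11c+ library for Isg15 and the lowest for Usp18. Without it the fold changes were 0.89 and 1.12, again not passing.

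The IFIT genes were higher in most P5 CD11c+ libraries. Ifit1 had 10.3, 167 and 9.27 CPM in CD11c+, against 3.74, 5.21 and 4.92 CPM in CD11c-, at 3.72 ± 1.22 (adjusted p = 0.487), and without replicate 2 it rose by 1.12 (adjusted p = 0.0363). Ifit2 had 22.25, 18.8 and 19.97 CPM against 7.97, 10.5 and 9.84 CPM, at 1.11 ± 0.26 (adjusted p = 0.221), and 1.19 without replicate 2 (adjusted p = 0.0152). Neither overlapped between subsets, and the size of the Ifit1 change rests on 1 library. Without replicate 2, Ifit3 rose by 1.68 (adjusted p = 0.00378) and Ifit3b by 2.36 (adjusted p = 0.0227).

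Among the synthetases, Oas2 had 125, 19.9 and 82.5 CPM in P5 CD11c+, against 19.1, 33.9 and 27.1 CPM in CD11c-, at 1.51 ± 0.62 (adjusted p = 0.69), and 1.99 without replicate 2 (adjusted p = 0.00876). Oasl2 had 62.5, 32.4 and 36.4 CPM against 18.2, 29.1 and 21.0 CPM, at 0.95 ± 0.34 (adjusted p = 0.569), and 1.15 without replicate 2 (adjusted p = 0.0491). Oasl2 did not overlap, and Oas2 did so only through replicate 2. Oas3, so much lower in CD11c+ at 9 months, had 8.19, 23.6 and 5.86 CPM against 6.79, 16.5 and 13.6 CPM at P5, with a fold change of 0.00, or -0.77 without replicate 2 (adjusted p = 0.25). Mx1 had 38.8, 10.7 and 32.9 CPM in CD11c+, against 23.9, 26.5 and 27.8 CPM in CD11c-, at 0.09 ± 0.44 (adjusted p = 0.973). Mx2 had 10.3, 5.52 and 12.02 CPM against 13.9, 10.3 and 15.0 CPM, at -0.47 ± 0.40 (adjusted p = 0.808). Both Mx genes overlapped between subsets, Mx1 through replicate 2 alone.

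The sensors Ddx60 and Ifi207 held the largest differences without overlap apart from Ifit1. Ddx60 (ENSMUSG00000037921, chromosome 8, 61928087 to 62038244) had 115, 74.0 and 119 CPM in P5 CD11c+, against 26.8, 28.1 and 20.9 CPM in CD11c-, a log2 fold change of 2.02 ± 0.27 (adjusted p = 0.0551), the smallest adjusted p among the members. Without replicate 2 it rose by 2.23 (adjusted p = 0.000742). Ifi207, a nuclear protein of the interferon-inducible p200 family, had 167, 124 and 248 CPM against 14.1, 47.0 and 32.1 CPM, at 2.53 ± 0.51 (adjusted p = 0.148), and 2.77 without replicate 2 (adjusted p = 0.0143). For both genes the lowest CD11c+ library was replicate 2, and it still exceeded every CD11c- library. Ifi204, Ifih1, Ddx58 and Dhx58 also separated the subsets without overlap, with fold changes between 0.53 and 1.04, and of these only Dhx58 rose without replicate 2 (0.76, adjusted p = 0.0297). Zbp1 was at -0.09.

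Of the membrane proteins at P5, Bst2 had 136, 332 and 145 CPM in CD11c+, against 76.1, 51.0 and 65.6 CPM in CD11c-, at 1.67 ± 0.42 (adjusted p = 0.264), and 1.16 without replicate 2 (adjusted p = 0.0143). Ifitm3 had 112, 48.2 and 107 CPM against 49.96, 194 and 201 CPM, at -0.73 ± 0.58 (adjusted p = 0.805). Bst2 separated the subsets, and Ifitm3 did not. Rsad2 had 21.3, 37.2 and 21.8 CPM in CD11c+, against 10.1, 11.2 and 36.3 CPM in CD11c-, at 0.47 ± 0.56 (adjusted p = 0.848), and Isg20 had 2.63, 1.47 and 5.81 CPM against 3.55, 4.30 and 10.1 CPM, at -0.83 ± 0.74 (adjusted p = 0.809). Both overlapped, as did Cmpk2 at -0.09.

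Slfn5 was the Schlafen gene that separated the P5 subsets. It had 97.3, 98.7 and 77.4 CPM in CD11c+, against 31.3, 44.4 and 43.2 CPM in CD11c-, at 1.20 ± 0.24 (adjusted p = 0.148), and 1.17 without replicate 2 (adjusted p = 0.0171). Slfn8 had 49.9, 21.7 and 38.7 CPM against 39.8, 28.5 and 27.8 CPM, at 0.21 ± 0.34 (adjusted p = 0.899), and Slfn2 was at 0.07; both overlapped. Ifi44 had 1.28, 9.57 and 0.815 CPM in CD11c+, against 0.685, 0.992 and 1.33 CPM in CD11c-, at 1.89 ± 1.06 (adjusted p = 0.8), and 0.11 without replicate 2. Rtp4, a chaperone for receptors that also limits viral replication, had 38.5, 16.6 and 29.6 CPM against 19.8, 21.6 and 12.9 CPM, at 0.65 ± 0.37 (adjusted p = 0.8). Without replicate 2, Phf11d rose by 1.86 (adjusted p = 0.00364) and Parp14 by 0.76 (adjusted p = 0.0271). The others of this group, Ifi27l2a, Xaf1, Trim30a, Phf11b and Sp100, lay between 0.01 and 0.59 with replicate 2 and did not pass.

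The difference between subsets was then compared between ages, as the 9-month fold change minus the P5 fold change in a fit of all 10 libraries. Of the 42 members, 31 had a difference below 0, with a median of -0.76 against -0.06 over all 19555 genes tested. Only Ddx60 and Slfn2 passed, both as lower (4.76%, against 1.56% of all genes that passed as lower and 0.302% as higher). Lower here means a lower CD11c+ over CD11c- fold change at 9 months than at P5, not a lower level. Ddx60 was -0.78 at 9 months and 2.02 at P5, a difference of -2.62 ± 0.50 (SE; adjusted p = 0.0313). Slfn2 was -2.42 at 9 months and 0.07 at P5, a difference of -2.29 ± 0.49 (adjusted p = 0.0495). Next in order of p were Slfn5 with a difference of -1.59 (adjusted p = 0.0761), Oas3 with -2.78 (adjusted p = 0.0831) and Cmpk2 with -2.61 (adjusted p = 0.114). Without P5 CD11c+ replicate 2, 15 members passed as lower in this sense and 0 as higher. These were 35.7% of the members, against 10.3% of all 18348 genes tested that passed as lower and 8.76% as higher. Among the 15, Ddx60 stood at -2.89 (adjusted p = 0.000248), Cmpk2 at -2.97, Oas3 at -2.22 and Sp100 at -2.26. Ifit3, which was above 0 at both ages, was also among the 15, at -0.86 (adjusted p = 0.0495). Ifi207, Phf11d, Bst2 and Ifit2, likewise above 0 at both ages, did not pass in this comparison. The call for Ddx60 and Slfn2 was lost when any 1 P5 library other than CD11c+ replicate 2 was left out. Over all genes those fits called 0 to 184 lower and 0 to 30 higher, against 305 and 59 with all 10 libraries. Leaving out a 9-month library leaves 1 in its group, so only sizes are given there. With each of the 10 libraries left out in turn, the difference ran from -2.89 to -2.41 for Ddx60 and from -2.55 to -2.03 for Slfn2. Age and any effect of the library kit that differs between subsets cannot be told apart here. Cell makeup differed as well. The 20 neutrophil markers made up 15.1% to 20.3% of counts in the 9-month CD11c- libraries, against 0.119% to 0.397% in P5 CD11c-. The part this plays in the differences between ages was not tested.

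**Figure D4:**
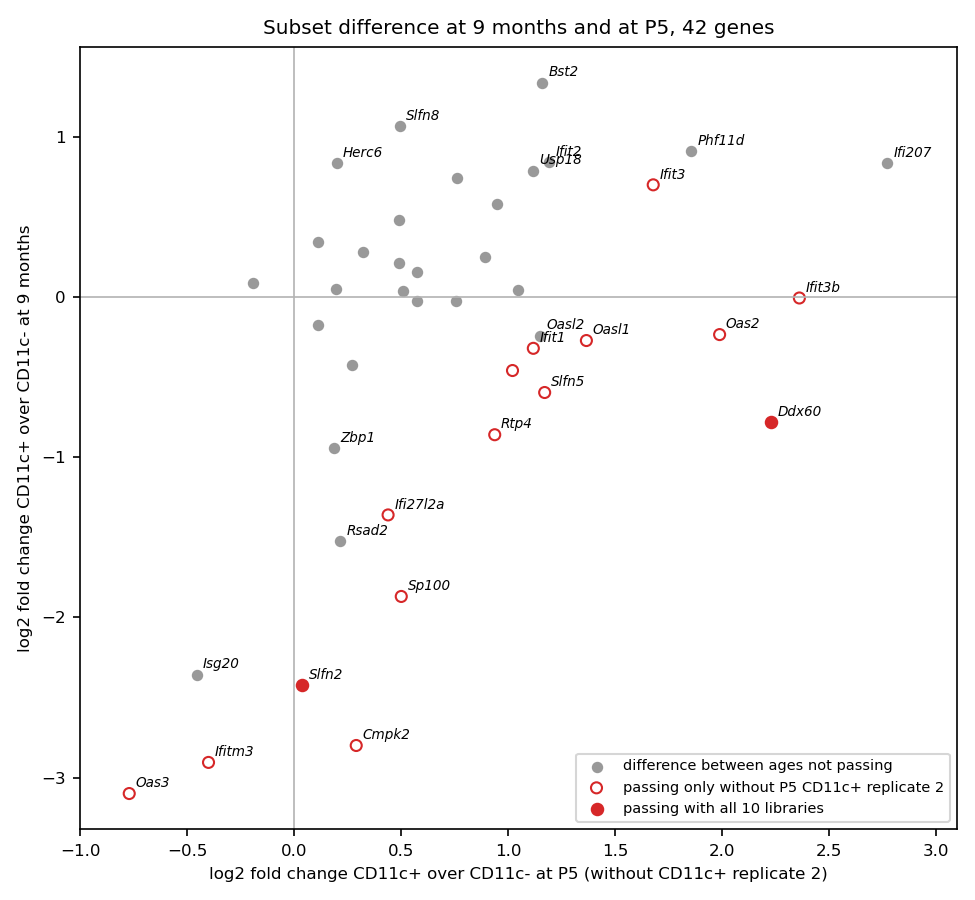
Log2 fold change of CD11c+ over CD11c- at 9 months (vertical) and at P5 without CD11c+ replicate 2 (horizontal) for the 42 genes. Filled red points differ between ages with all 10 libraries (Ddx60 and Slfn2), open red points only without that replicate (13 more), and Bst2, Phf11d, Ifit3 and Ifi207 lie above 0 at both ages.

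The upstream genes of the pathway were read in the same fits, in lists that hold Irf9, Stat2, Usp18 and Isg15 as well. Of the type I interferon genes, only Ifnb1 had enough counts to be tested between subsets of 1 age, and only at 9 months, with 1.92 and 1.97 CPM in CD11c+, against 2.18 and 2.25 CPM in CD11c- (log2 fold change -0.19, adjusted p = 0.803). The other 16 type I interferon genes held between 0 and 24 counts in all per library, with the 24 in P5 CD11c+ replicate 2, where Ifna13 had 20. Ifnar1, a receptor chain, had 140 and 108 CPM in 9-month CD11c+, against 61.2 and 68.2 CPM in CD11c-, a rise of 0.94 ± 0.18 (adjusted p = 0.00913), and the kinase Tyk2 rose by 1.0004 ± 0.24 (adjusted p = 0.0186). These were the 2 of 7 receptor and Janus kinase genes that passed, beside 14.8% of all genes that rose and 18.2% that fell. Ifnar2, the other receptor chain, did not pass, at 0.38 (adjusted p = 0.0793). Under the homeostatic scaling Ifnar1 and Tyk2 turned to -0.30 and -0.24, and 5 of the 7 passed as lower, beside 55.4% of all genes. At P5 0 of the 7 passed, with 0 at an unadjusted p under 0.05, and without CD11c+ replicate 2 Ifnar1 alone of the 7 rose, by 0.73 (adjusted p = 0.033).

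Of the 20 sensors, adaptors and interferon regulatory factors outside the list of response genes, 11 rose in 9-month CD11c+ cells and 1 fell, beside 14.8% of all genes that rose and 18.2% that fell. Unc93b1, which carries Toll-like receptors to endosomes, had 2101 and 1918 CPM in CD11c+, against 830 and 738 CPM in CD11c-, at 1.36 ± 0.14 (adjusted p = 0.000739), and Mavs, the mitochondrial adaptor of RNA sensing, had 88.4 and 88.3 CPM against 30.9 and 32.1 CPM, at 1.49 ± 0.16 (adjusted p = 0.000859). Ikbke, a kinase that activates interferon regulatory factors, had 2.09 and 2.53 CPM against 18.2 and 14.7 CPM, at -2.83 ± 0.31 (adjusted p = 0.000825). Scaled to the homeostatic genes, Unc93b1 and Mavs stood at 0.12 and 0.26, and 0 of the 20 were higher (0 also at an unadjusted p under 0.05) and 9 lower, beside 0.693% and 55.4% of all genes. Among 10 negative regulators 2 rose and 3 fell at 9 months, beside 14.8% and 18.2% of all genes. The list was led by Samhd1, which depletes nucleotides, at -2.11 ± 0.14 (adjusted p = 0.000102). Socs3, an inhibitor of cytokine receptor signalling, was at 1.44 ± 0.24 (adjusted p = 0.00471). Of 17 tested genes from a list biased towards interferon-gamma but not specific to it, 8 rose and 0 fell (beside the same 14.8% and 18.2% of all genes). Among them were the guanylate-binding protein gene Gbp7 at 1.03 (adjusted p = 0.00659) and the immunity-related GTPase genes Irgm2 at 1.08 (adjusted p = 0.00643) and Igtp at 0.95 (adjusted p = 0.00731). Under the homeostatic scaling these 3 lay between -0.29 and -0.16, and Irgm1 at -0.40. The other 4 of the 8, Iigp1, Ciita, Gbp4 and Tgtp2, stayed above 0 under that scaling, at 0.42, 0.45, 0.42 and 0.20, without passing; reads of Tgtp2 may be split with its near-identical copy Tgtp1. The receptors Ifngr1 and Il10rb rose by 0.92 (adjusted p = 0.00261) and 0.68 (adjusted p = 0.0136), at -0.31 and -0.54 under that scaling. Ifnlr1, the specific chain of the interferon-lambda receptor, had 0.418 and 0.111 CPM in CD11c+, against 20.4 and 23.2 CPM in CD11c-, at -6.32 ± 0.51 (adjusted p = 0.000231). At P5 edgeR called 0 genes of these lists in either direction with all 6 libraries. At an unadjusted p under 0.05, 2 interferon-gamma genes were higher and Ifnlr1 was lower, and DESeq2 called 2 interferon-gamma genes higher. Without CD11c+ replicate 2, 5 of 17 interferon-gamma genes rose and 0 fell (beside 5.06% and 4.42% of all genes), among them Iigp1, an immunity-related GTPase gene, by 3.50 (adjusted p = 0.00838) and Ciita, the activator of MHC class II genes, by 2.72 (adjusted p = 0.0132), while Ifnlr1 was again lower, at -2.66 (adjusted p = 0.0403). Il10rb rose by 1.05 (adjusted p = 0.00687) and Tlr8, an endosomal Toll-like receptor, by 2.26 (adjusted p = 0.0404) in that fit.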

How the data were processed

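RNA-seq was analysed for 10 libraries of sorted mouse microglia. The deposited values are unnormalized whole-number counts of reads for 49315 genes. Trimmomatic 0.36, STAR 2.5.2b and Subread 1.5.2 were used, per the submitters' processing notes. How reads were assigned by strand or when multiply mapped, and on which genome build, is not given in the sources used here, so genes that overlap on either strand, such as Irf9 with Rnf31, or that have near-identical copies are uncertain. Symbols came from the GENCODE M21 annotation (GRCm38), which gives 38 of the 42 members the same start and end as the deposited count tables.

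Each age was fitted alone by edgeR 4.0.16 (quasi-likelihood test, R 4.3.3), after filterByExpr and TMM scaling, and the difference between ages as an interaction term in all 10 libraries. P-values were adjusted by Benjamini-Hochberg over all genes tested, at a threshold of 0.05. Fold changes are log2, and each standard error is the size of the fold change over the root of F. The fits were tested on simulated data, with 50 genes changed at each fold. The changed genes were drawn only from those above a cut on mean CPM, and all others were left unchanged. Recovery of genes with low counts was therefore not measured. Of 4-fold changes, 96% were recovered at 9 months, 30% at P5 and 6% for the difference between ages. Of 2-fold changes these fits recovered 40%, 0% and 0%. At P5 without CD11c+ replicate 2 the shares were 96% of 4-fold and 46% of 2-fold changes. A gene that did not pass at P5 or between ages can therefore still differ. Levels per kilobase use the length column of the deposited tables. Alternatives were RLE size factors, DESeq2 1.42.0, no filter on low counts, scaling to 28 homeostatic microglia genes, a replicate block, a fit of all 10 libraries, and each library left out. No pair of replicates was as alike as sampling noise would make duplicates.

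Members, gene lists and rules were chosen with earlier results of these data known. The 2 members with the smallest p in each of 10 role groups, and Irf7, Irf9 and Stat2, are given with every library. Other members are named after their values were seen. Up to 3 genes per pathway list, besides Ifnar1, Ifnar2 and Ifnb1, and the 5 smallest p of the difference between ages were taken; another gene this rule names is not reported here. Promoters are RefSeq windows (GRCm38.p6).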

Additional observations from a re-analysis of the deposited data

Results flagged for a closer look

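The CD11c+ to CD11c- difference of Ddx60 was not the same at the 2 ages by the interaction test, with a log2 fold change of -0.78 at 9 months and 2.02 at P5 and a difference of -2.62 (edgeR adjusted p = 0.0313). Slfn2 was set apart by the same test, with -2.42 at 9 months and 0.07 at P5 and a difference of -2.29 (edgeR adjusted p = 0.0495). Its call was lost without the low-count filter and with the mitochondrially encoded genes left out, where Ddx60 kept its call. With the replicate block both were lost. No explanation was tested for either gene, and both lost the call whenever 1 P5 library other than CD11c+ replicate 2 was left out. Over all genes those fits called 0 to 184 lower, against 305 with all 10 libraries. The neutrophil marker share of the CD11c- libraries differed between the ages as given above.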

How the results depend on the processing

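At 9 months 19 members passed, and 18 with RLE size factors, 20 with DESeq2 and 22 without the low-count filter. Fits with 1 library of that age left out leave 1 in its group and are not counted. The number passing was 32 when scaled to the homeostatic genes, which fixes those genes near 0. It was 3 in the fit of all 10 libraries, whose spread is wider. Over all genes 2333 were higher and 2869 lower at 9 months. The numbers were 2240 and 2925 with RLE size factors, 2453 and 3133 with DESeq2, and 2997 and 3156 without the filter. They were 109 and 8726 with the homeostatic scaling, and 280 and 878 in the fit of all 10 libraries. At P5 the count of members was 0, against 1 with RLE size factors, 5 with DESeq2, 1 with the homeostatic scaling, 1 in the fit of all 10 libraries and 0 to 13 with 1 library left out. Over all genes 46 were higher and 0 lower at P5, and 53 and 0 with RLE size factors. The numbers were 392 and 162 with DESeq2, 99 and 0 with the homeostatic scaling, and 104 and 34 in the fit of all 10 libraries. With 1 library left out, they were 801 and 700 without CD11c+ replicate 2 and 0 otherwise. For the difference between ages the count of members was 2, against 3 with RLE size factors, 6 with DESeq2 and 4 without the filter. The 4 were Cmpk2, Ddx60, Ifit1 and Oas3, without Slfn2. The count was 30 with the homeostatic scaling and 0 to 15 with 1 P5 library left out. Over all genes 59 were higher and 305 lower in that comparison, and 102 and 521 with RLE size factors. The numbers were 725 and 1645 with DESeq2, 139 and 554 without the filter, and 22 and 6036 with the homeostatic scaling. Leaving out the mitochondrially encoded genes, an alternative chosen after seeing the data, gave 19 members at 9 months, 1 at P5 and 1 for the difference. Over all genes it gave 2348 higher and 2878 lower at 9 months, 50 and 0 at P5, and 143 and 202 for the difference. Whether the same replicate numbers pair the samples is not settled. Deviations of same-numbered libraries correlated at 0.457, 0.0954 and -0.403 at P5, which differ in sign, and at 0.0861 at 9 months. With 2 libraries per group the deviations mirror each other, so the 9-month value cannot show or exclude pairing. The replicate block gave 19 members at 9 months, 0 at P5 and 0 for the difference. Over all genes it called 2490 higher and 2946 lower at 9 months, 0 at P5 and 0 for the difference.

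Among members that passed with either setting, a sign turned only under the homeostatic scaling; members that passed with neither also turned under that and other settings. At 9 months these were Irf9 (-0.97), Stat2 (-0.76), Usp18 (-0.44), Herc6 (-0.39), Ifit2 (-0.37), Ifit3 (-0.54), Mx1 (-1.03), Mx2 (-1.16), Ifih1 (-1.08), Ddx58 (-1.21), Ifi204 (-1.19), Ly6e (-0.89), Slfn8 (-0.16), Trim30a (-1.17), Phf11b (-0.66) and Phf11d (-0.33), and for the difference between ages Irf9 (-1.44), Usp18 (-1.75), Parp14 (-1.43) and Trim30a (-1.66). The scaling moved the median of all genes to -1.20 at 9 months, 0.56 at P5 and -1.99 for the difference. Where not stated, the cause of a changed count was not tested. With all 6 P5 libraries a log2 fold change of 3.72 (Ifit1) did not pass in edgeR, and without CD11c+ replicate 2, the library of lowest depth, 0.76 (Parp14) did.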
